A study of Mus musculus with 6 samples.

Results

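The MHC class I and immunoproteasome genes followed here are 10 genes chosen by symbol: the class I heavy chains H2-K1 and H2-D1, their light chain gene B2m, the peptide loading genes Tap1, Tap2 and Tapbp, the immunoproteasome subunit genes Psmb8, Psmb9 and Psmb10, and the class I transactivator gene Nlrc5. All 10 were found among the 24062 genes of the count table, and all 10 passed the low-count filter that left 12126 genes for testing. The libraries came from lineage-negative mouse hematopoietic cells, that is, cells depleted of those bearing mature lineage markers, that received by retroviral transfer the leukemia fusion oncogene MLL-AF9. There were 3 libraries labelled A20 WT (genotype A20 +/+) and 3 labelled A20 KO (genotype A20 f/f), and both genotypes carried Rosa Cre-ER, a Cre recombinase that tamoxifen activates. Cultures of both genotypes were kept in IL-6, IL-3 and SCF and received 1 µM 4-hydroxytamoxifen for 48 h, so that Cre activation and drug were common to both groups and the floxed A20 gene was not. The animals' age, strain and number, and whether a replicate was a separate culture, are not stated in the labels, and p-values therefore reflect only variation among these 6 libraries, possibly technical.

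Class I molecules display peptides from the cell's own proteins to CD8 T cells and are ligands for inhibitory receptors of NK cells. Proteasomes cut the proteins, and the immuno-subunits, which replace the constitutive catalytic subunits in interferon-treated and hematopoietic cells, favour peptide ends that fit the class I groove. The transporter formed by TAP1 and TAP2 moves peptides into the endoplasmic reticulum, where tapasin (Tapbp) holds empty heavy chain and β2-microglobulin beside it. NLRC5 has no DNA-binding domain of its own and is recruited by the RFX and NF-Y factors to class I promoters, and NF-κB, which A20 (Tnfaip3) restrains, and interferon-regulatory factors have sites in the same promoters.

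The libraries held 16113320 to 25415274 counted reads. Tnfaip3, the targeted gene, had 7.39, 8.67 and 8.24 CPM under the WT label and 100.1, 74.1 and 79.1 CPM under the KO label, which goes against the label. A gene-level count does not measure the floxed exons apart from the rest. Groups are therefore named by label, and every difference is KO-labelled minus WT-labelled. Xist was at 564 to 2109 CPM under the WT label and at most 4.77 CPM under the KO label, so that donor sex and genotype label cannot be told apart. In each group replicate 1 was distant from the other libraries (chi-square per degree of freedom 205 and 231 in the WT-labelled group and 94.5 and 79.7 in the KO-labelled group, against 25.2 and 2.37 between replicates 2 and 3). The main counts are therefore also given over replicates 2 and 3 alone. Levels are read counts scaled to the library total (CPM) after TMM scaling, given as mean ± SD with n = 3 libraries per group. Genes were tested by the quasi-likelihood method of edgeR, adjusted after Benjamini-Hochberg over all 12126 genes, and a gene is called at an adjusted p under 0.05.

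Of the 10 genes, 3 were called lower in the KO-labelled libraries (Nlrc5, Psmb9 and Tap1), 0 were called higher and 7 did not pass. Over all tested genes 27.3% were called, 13.7% higher and 13.7% lower, so 3 of 10 is near the background. At an unadjusted p under 0.05 edgeR also gave 0 higher and 3 lower, and DESeq2 and limma-voom each called 0 higher and 3 lower. The median log2 fold change of the 10 genes was −0.22, against −0.04 over all tested genes. In replicates 2 and 3 alone, where 52.9% of 12201 tested genes were called, 6 of the 10 were lower (27.1% of all tested genes) and 1 higher (25.8%). Groups did not overlap for 4 of the 10 genes (Nlrc5, Psmb9, Tap1 and Psmb8, each lower), where 47.6% of all tested genes had no overlap and 23.5% had none with the KO-labelled libraries lower. KO-labelled replicates 2 and 3 were the closest pair within a group, and summing them into 1 sample ended all 3 calls, in a setting added after the data were seen (edgeR adjusted p = 0.058 for Nlrc5, 0.085 for Tap1 and 0.054 for Psmb9).

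**Figure D1:**
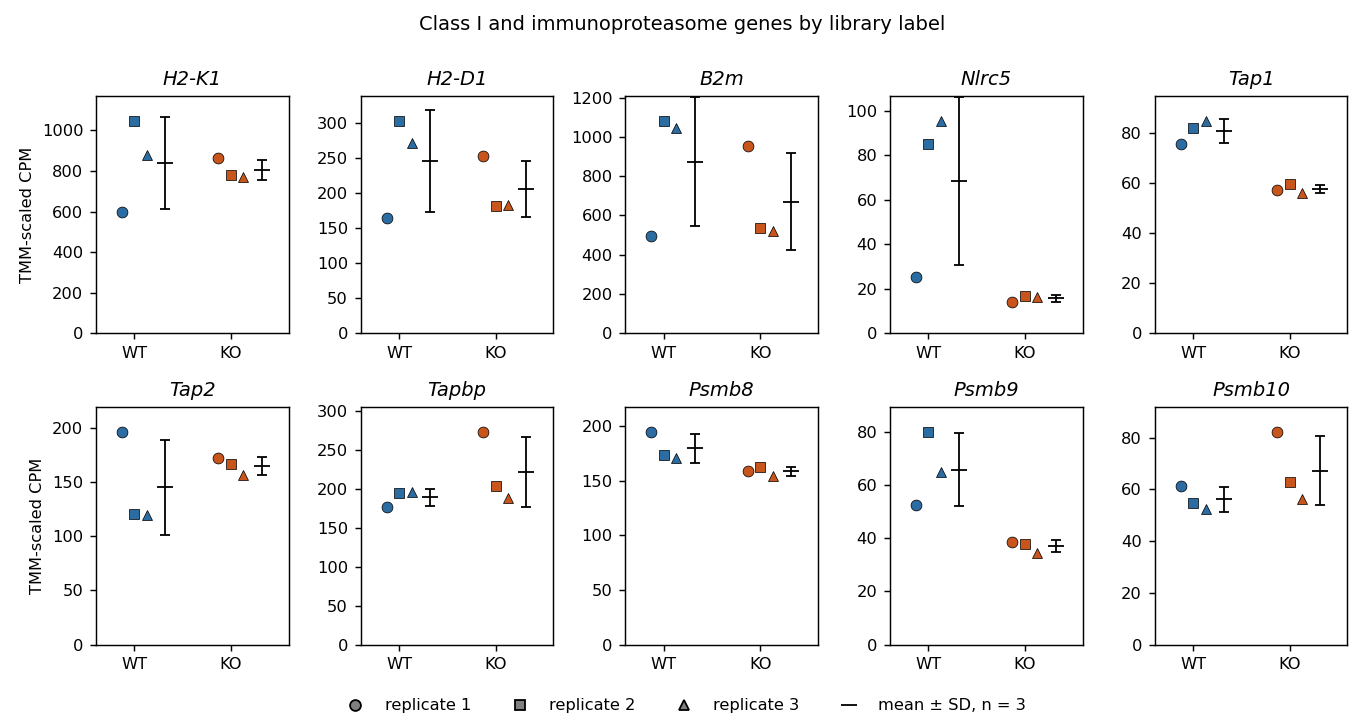
TMM-scaled CPM (vertical axes, linear, from 0) of the 10 genes in the 3 WT-labelled (blue) and 3 KO-labelled (orange) libraries. Symbols mark the replicate number and bars the mean ± SD. For H2-K1, H2-D1, B2m and Tapbp the WT-labelled replicate 1 is the lowest of the 6 libraries and lies below KO-labelled replicate 1. For Nlrc5, Tap1, Psmb8 and Psmb9 every KO-labelled library lies below every WT-labelled one.

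Per kilobase of the longest coding transcript (RPKM scale), B2m stood highest and Nlrc5 lowest in both groups, with 1016 ± 383 and 779 ± 287 RPKM for B2m and 9.03 ± 4.99 and 2.07 ± 0.20 RPKM for Nlrc5 in the WT-labelled and KO-labelled libraries. H2-K1 followed B2m with 519 ± 141 and 497 ± 31.7 RPKM, and H2-D1 came next with 117 ± 34.6 and 97.8 ± 19.3 RPKM. In the WT-labelled libraries the order went on with Psmb8 (110 ± 7.94), Tapbp (65.1 ± 3.65), Psmb9 (48.6 ± 10.14), Psmb10 (42.8 ± 3.58), Tap2 (42.1 ± 12.8) and Tap1 (27.3 ± 1.63 RPKM). Library ranges of B2m and H2-K1, of H2-D1 and Psmb8, of Psmb9 and Psmb10 and of Psmb10 and Tap2 overlapped there, so these neighbours could not be ranked. In the KO-labelled libraries Psmb9 came eighth, at 27.3 ± 1.64 RPKM, behind Psmb10 (51.3 ± 10.197) and Tap2 (47.8 ± 2.32), whose ranges overlapped each other and lay above that of Psmb9. Lengths taken as the union of all annotated exons gave the same first 3 genes and the same last gene in both groups, and moved Tap2 from the eighth to the sixth place in the WT-labelled group.

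H2-K1 and H2-D1 are the classical heavy chains that bind and show peptide, and B2m encodes the light chain without which neither reaches the surface. H2-K1 lies on chromosome 17 at 33996017 to 34000347 of mm10 (minus strand) and H2-D1 at 35262730 to 35267499 (plus strand), and B2m lies on chromosome 2 at 122147686 to 122153083 (plus strand). Their levels did not separate the groups. H2-K1 had 595, 1046 and 879 CPM under the WT label and 864, 780 and 770 CPM under the KO label. H2-D1 had 164, 303 and 271 CPM against 252, 181 and 183 CPM. B2m had 494, 1081 and 1046 CPM against 955, 535 and 520 CPM. In all 3 genes WT-labelled replicate 1 was the lowest library and KO-labelled replicate 1 lay above the other KO-labelled libraries, so the ranges overlapped. The log2 fold changes were −0.06 for H2-K1 (95% interval −0.60 to 0.48, adjusted p = 0.87), −0.26 for H2-D1 (−0.86 to 0.34, adjusted p = 0.50) and −0.38 for B2m (−1.26 to 0.49, adjusted p = 0.50) by edgeR.

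For these 3 genes the replicate 1 libraries differed in the opposite direction from replicates 2 and 3, although the labels do not say whether the replicate numbers pair the libraries. Leaving out WT-labelled replicate 1 gave −0.25 for H2-K1, −0.48 for H2-D1 and −0.66 for B2m. Leaving out KO-labelled replicate 1 gave −0.11, −0.43 and −0.72, so all estimates stayed negative. Without WT-labelled replicate 2 the H2-K1 estimate was 0.11. Between the replicate 1 libraries the log2 difference was 0.54 for H2-K1, 0.62 for H2-D1 and 0.95 for B2m, with the KO-labelled library higher. Replicates 2 and 3 alone gave −0.33 (SE 0.10, adjusted p = 0.037), −0.67 (SE 0.08, adjusted p = 7.1e-04) and −1.03 (SE 0.08, adjusted p = 1.1e-04) by edgeR, and all 3 genes were called lower there. The KO-labelled pair lay very close together (chi-square per degree of freedom 2.37), so these SEs may understate the spread between cultures. Pooling the counts of that pair, and likewise of the WT-labelled pair, while keeping replicate 1 removed these calls. The estimates were then 0.11 for H2-K1, −0.02 for H2-D1 and −0.04 for B2m (edgeR adjusted p = 0.88, 0.98 and 0.97). Replicate 1 holds 1 library per group and allows no test of its own. Within the WT-labelled group, replicates 2 and 3 averaged 1.62 times the replicate 1 level for H2-K1, 1.75 times for H2-D1 and 2.15 times for B2m. In the KO-labelled group the replicate 1 level was 1.11, 1.38 and 1.81 times the average of replicates 2 and 3. Markers of mature monocytes and macrophages did not follow 1 pattern across these libraries. Csf1r, the receptor of the macrophage growth factor, had 2.84, 36.2 and 35.3 CPM under the WT label and 353, 134 and 134 CPM under the KO label. Cd14, a co-receptor for bacterial lipopolysaccharide, had 9.89, 37.4 and 27.8 CPM against 518, 290 and 274 CPM, so that both were lowest in WT-labelled replicate 1 and highest in KO-labelled replicate 1. The other 7 markers in the table were each highest in a WT-labelled library and summed to 17.4, 74.7 and 65.2 CPM against 9.82, 5.15 and 5.25 CPM. The part of these markers in the class I levels was not tested, and in bulk RNA more cells of a type cannot be told apart from more RNA per cell.

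The upstream sequences of these 3 genes are shown because WT-labelled replicate 1 was the lowest library for all 3. That library was the lowest for Tapbp too, whose window is not printed and had no NF-κB or interferon-type match (below). The low level in that library thus did not go with these motifs in every gene. Each printed sequence is the 250 bases before the RefSeq start (GRCm38.p6, the mm10 assembly), 5′ to 3′ on the gene's strand. Windows were H2-K1 at chr17:34000348-34000597 (minus strand), H2-D1 at chr17:35262844-35263093 (plus strand) and B2m at chr2:122147437-122147686 (plus strand). Capitals mark matches, on either strand, to 6 motifs. The long interferon-type motif is GAAA, 2 bases of any kind and GAAA, and the short one is GAA, 2 bases of any kind and GAAA, and matches to them may overlap. Interferon-regulatory factors can bind both. The others are GGGA followed by 4 bases of any kind and CC, a form of the NF-κB site, TGACG, the core of the site for CREB and ATF factors, CCAAT, which NF-Y binds, and GGGCGG, the GC box.
H2-K1: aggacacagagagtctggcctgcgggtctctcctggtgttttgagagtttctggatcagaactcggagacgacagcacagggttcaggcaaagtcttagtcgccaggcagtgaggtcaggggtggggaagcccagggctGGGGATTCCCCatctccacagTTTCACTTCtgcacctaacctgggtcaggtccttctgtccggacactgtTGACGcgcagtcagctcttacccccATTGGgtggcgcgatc
H2-D1: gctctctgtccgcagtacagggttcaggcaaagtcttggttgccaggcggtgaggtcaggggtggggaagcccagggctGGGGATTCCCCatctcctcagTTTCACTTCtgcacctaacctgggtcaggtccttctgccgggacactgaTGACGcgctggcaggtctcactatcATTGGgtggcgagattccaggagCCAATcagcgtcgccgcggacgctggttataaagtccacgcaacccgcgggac
B2m: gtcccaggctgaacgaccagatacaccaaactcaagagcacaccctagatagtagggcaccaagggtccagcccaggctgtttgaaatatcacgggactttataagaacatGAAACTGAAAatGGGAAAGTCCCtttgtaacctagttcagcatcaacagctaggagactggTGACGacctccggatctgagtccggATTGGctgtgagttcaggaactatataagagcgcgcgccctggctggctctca
H2-K1 and H2-D1 were identical at 166 of 190 aligned bases (87.4%) of these windows. The NF-κB form was found in all 3 windows and in 17.6% of 32851 upstream windows of the same length, the TGACG core in all 3 and in 17.8%, and CCAAT in all 3 and in 33.8%. The short interferon-type motif was present in the H2-K1 and H2-D1 windows (6.3% of all windows) and the long one in the B2m window (3.0%), and the GC box (32.7%) was in none of the 3. Of the other 5 genes with an entry, Tapbp, Psmb8, Psmb10, Tap1 and Psmb9 had no match to the NF-κB form or to either interferon-type motif in their own 250 bases. The TGACG core was absent from the windows of Tapbp, Psmb8 and Psmb10 and present in those of Tap1 and Psmb9. The motifs were chosen with these sequences in view, and a match is a description of the letters, not evidence of a bound site.

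Reads of class I genes can be shared among near-identical copies, and how the authors' counting treated reads that match several genes is not given in the sources used here. Of the 31-base stretches in H2-K1 transcripts 22.8% also occurred in transcripts of other genes, with H2-D1 (11.1%) and H2-Q10 (9.5%) the main partners, and for H2-D1 the share was 26.7%, whereas B2m had 0.0%. The levels of H2-K1 and H2-D1 are uncertain to that extent. Summed over the 34 listed class I and class I-like heavy chain genes of the table, the level was 935, 1625 and 1396 CPM under the WT label. Under the KO label it was 1375, 1171 and 1158 CPM. The means were 1319 ± 351 against 1235 ± 121 CPM (two-sided exact permutation over libraries, p = 0.6). No p below 0.1 is possible with 3 against 3. H2-K2, a class I gene by its symbol, was not on the list and is left out of the sum. H2-K1 and H2-D1 made up 81.2% to 83.0% of this sum in every library. Without WT-labelled replicate 2 the group means of the sum differed in the opposite direction, by 69.2 CPM (exact permutation p = 1), and over replicates 2 and 3 alone by −345 CPM (exact permutation p = 0.33, the smallest that 2 against 2 allows).

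Nlrc5 showed the largest difference of the 10 genes. The gene lies on chromosome 8 at 94434356 to 94527272 (plus strand). Libraries held 25.2, 84.9 and 95.3 CPM under the WT label and 13.9, 16.9 and 16.1 CPM under the KO label. Every KO-labelled library lay below every WT-labelled one, and WT-labelled replicate 1 lay much nearer to the KO-labelled group than to its own. Nlrc5 fell by 2.13 on the log2 scale (SE 0.46, adjusted p = 0.014 by edgeR), a 4.37-fold lower level, from 68.4 ± 37.8 to 15.7 ± 1.55 CPM. In replicates 2 and 3 alone it fell by 2.46 (SE 0.10, adjusted p = 8.9e-06), and between the replicate 1 libraries the difference was −0.83. The call was lost when any library except WT-labelled replicate 1 was left out, with edgeR adjusted p of 0.055 and 0.052 without WT-labelled replicates 2 and 3 and of 0.070, 0.059 and 0.058 without KO-labelled replicates 1, 2 and 3. Transcripts of Nlrc5 shared 0.0% of their 31-base stretches with same-strand transcripts of other genes.

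Tap1, Tap2, Psmb8 and Psmb9 lie side by side on chromosome 17, and of these 4 the pair with the most closely spaced starts fell. Tap1 (34187553 to 34197225, plus strand) and Psmb9 (34181987 to 34187764, minus strand) are read in opposite directions from RefSeq starts 226 bases apart. Psmb8 (34197721 to 34201454) and Tap2 (34203527 to 34216321) follow on the plus strand, 0.495 kb after Tap1 and 2.07 kb after Psmb8. The stretch between the RefSeq starts of Psmb9 and Tap1, at chr17:34187331-34187555 on the strand of Tap1, is shown because 2 of the 3 called genes share it. The gene positions given here are from GENCODE. By those, Psmb9 and Tap1 overlap and the whole stretch lies within Psmb9.
Tap1-Psmb9: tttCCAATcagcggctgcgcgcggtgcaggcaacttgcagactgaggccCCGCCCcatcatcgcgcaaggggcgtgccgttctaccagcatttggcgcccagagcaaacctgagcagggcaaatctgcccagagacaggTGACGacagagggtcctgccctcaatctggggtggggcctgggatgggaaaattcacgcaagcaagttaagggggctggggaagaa
Capitals mark a CCAAT match, a GC box and a TGACG core, 1 match each. Neither interferon-type motif and no NF-κB form as spelled above was matched in these 225 letters. Of the 10 genes, 8 had an entry in the RefSeq promoter table; sequences of Tap2 and Nlrc5 were not used here.

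Tap1, one chain of the peptide transporter, had 75.4, 82.0 and 84.7 CPM under the WT label and 57.1, 59.5 and 56.2 CPM under the KO label. The groups did not overlap, and the spread within each was small. Tap1 fell by 0.49 on the log2 scale (SE 0.11, adjusted p = 0.016 by edgeR), a 1.40-fold lower level. The call was lost without any 1 KO-labelled library, with adjusted p of 0.0501, 0.079 and 0.093 without replicates 1, 2 and 3. Tap2, the other chain, had 196, 120 and 119 CPM under the WT label and 172, 166 and 156 CPM under the KO label. WT-labelled replicate 1 was the highest of the 6, whereas it was the lowest for B2m. Over all libraries Tap2 was not called (log2 fold change 0.18, 95% interval −0.32 to 0.68, adjusted p = 0.57). It was called higher without WT-labelled replicate 1 (0.47, adjusted p = 0.0084) and in replicates 2 and 3 alone (0.41, SE 0.07, adjusted p = 0.0033), both by edgeR. In replicates 2 and 3 alone the chains of 1 transporter were thus called in opposite directions, Tap1 lower (−0.54, SE 0.08, edgeR adjusted p = 0.0015) and Tap2 higher.

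Tapbp, the tapasin gene, lies on chromosome 17 at 33915899 to 33929292 (plus strand). It had 176, 194 and 195 CPM under the WT label and 272, 203 and 187 CPM under the KO label. KO-labelled replicate 1 alone stood out, and the other libraries of both groups overlapped. The log2 fold change was 0.23 (95% interval −0.17 to 0.62, adjusted p = 0.36 by edgeR) over all libraries and −0.01 in replicates 2 and 3 alone. Of its 31-base stretches 26.9% occurred in transcripts of other genes when both strands were counted and 4.6% on the same strand, and the strand setting of the counting is not given.

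**Figure D2:**
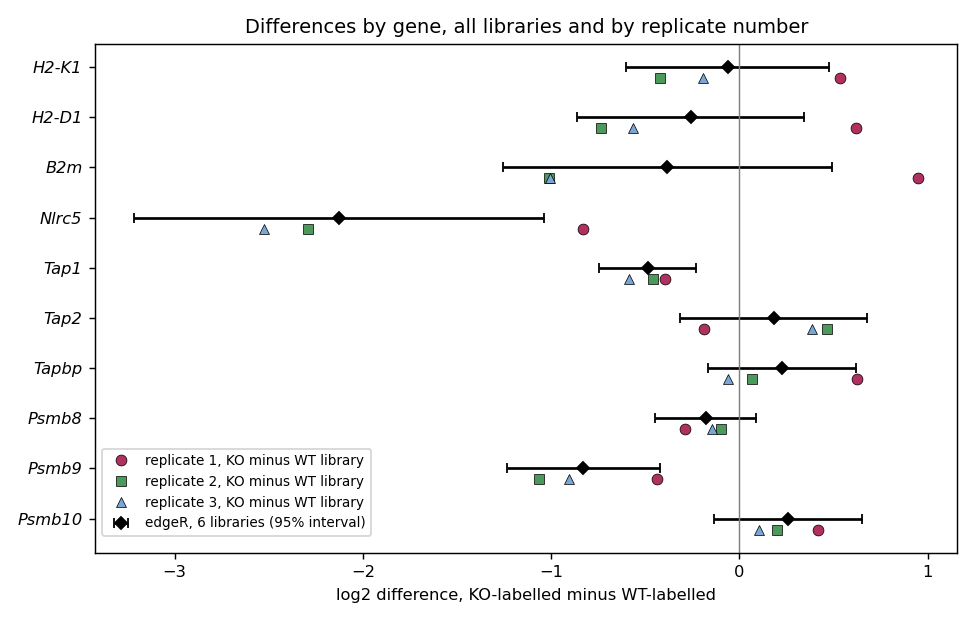
Log2 difference between KO-labelled and WT-labelled libraries (horizontal axis) for the 10 genes (vertical axis). Diamonds with bars give the edgeR estimate with its 95% interval over 6 libraries, and coloured symbols the difference between the libraries of the same replicate number on the log2(CPM + 0.5) scale; replicate 1 lies on the other side of 0 from replicates 2 and 3 for H2-K1, H2-D1, B2m and Tap2, and all 3 lie below 0 for Nlrc5, Tap1, Psmb8 and Psmb9.

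Of the 3 immunoproteasome subunit genes Psmb9 was called and Psmb8 and Psmb10 were not. Psmb9, which encodes the β1i subunit, had 52.4, 79.8 and 64.9 CPM under the WT label and 38.6, 37.8 and 34.4 CPM under the KO label. All KO-labelled values lay below all WT-labelled ones. Psmb9 fell by 0.83 on the log2 scale (SE 0.17, adjusted p = 0.012 by edgeR), a 1.78-fold lower level, with a fall of 1.01 (SE 0.12, adjusted p = 8.2e-04) in replicates 2 and 3 alone. Leaving out KO-labelled replicate 2 or 3 ended the call (adjusted p = 0.0508 and 0.058). Psmb8, the β5i subunit gene, had 194, 173 and 171 CPM against 159, 162 and 155 CPM. Its groups did not overlap either, but the difference was small and not called (log2 fold change −0.18, 95% interval −0.45 to 0.09, adjusted p = 0.29). Psmb10, the β2i subunit gene on chromosome 8 at 105935735 to 105938444 (minus strand), had 61.4, 54.7 and 52.4 CPM against 82.1, 63.0 and 56.4 CPM. The ranges overlapped, and KO-labelled replicate 1 was the highest (0.26, 95% interval −0.13 to 0.65, adjusted p = 0.30 by edgeR).

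The constitutive catalytic subunits that the immuno-subunits replace were measured in the same libraries. Psmb5 had 252, 135 and 119 CPM under the WT label and 243, 198 and 182 CPM under the KO label, Psmb6 had 196, 176 and 152 CPM against 221, 213 and 208 CPM, and Psmb7 had 257, 249 and 163 CPM against 215, 227 and 231 CPM. Of these 3 genes 0 were called in either direction by edgeR, DESeq2 or limma-voom, and 0 had an unadjusted p under 0.05 in edgeR. In replicates 2 and 3 alone Psmb5 and Psmb6 were called higher, where 25.8% of all tested genes were called higher. The log2 ratio of Psmb9 to its counterpart Psmb6 was −1.90, −1.14 and −1.23 in the WT-labelled and −2.51, −2.49 and −2.59 in the KO-labelled libraries, without overlap (difference −1.11; exact two-sided permutation p = 0.1, the smallest possible, adjusted over 3 ratios 0.3). For Psmb8 to Psmb5 the ratio was −0.38, 0.37 and 0.53 against −0.61, −0.29 and −0.24 (difference −0.55, exact permutation p = 0.3, adjusted p = 0.45). WT-labelled replicate 1 lay within the KO-labelled range for that ratio. Psmb5 shared 71.7% of its 31-base stretches with transcripts of other genes, mostly Gm3375 (59.8%), so its count and this ratio are uncertain. For Psmb10 to Psmb7 the ratio was −2.06, −2.19 and −1.64 against −1.39, −1.85 and −2.03 (difference 0.21, exact permutation p = 0.5, adjusted p = 0.5), and the difference was −0.025 in replicates 2 and 3 alone.

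**Figure D3:**
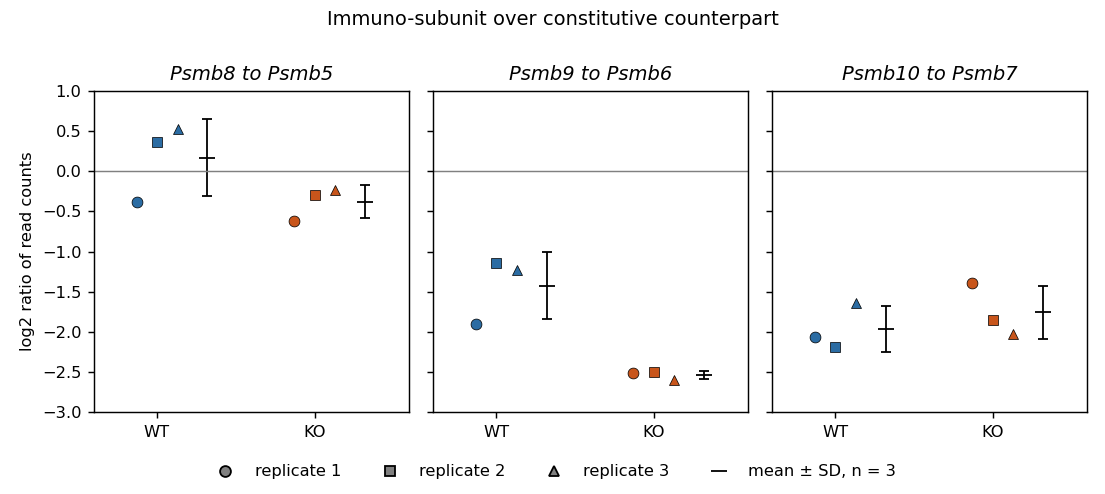
Log2 ratio of read counts (plus 0.5) of each immuno-subunit gene to its constitutive counterpart (vertical axis) in the WT-labelled and KO-labelled libraries. Symbols mark the replicate number and bars the mean ± SD; the ratio of Psmb9 to Psmb6 is at or below −2.49 in every KO-labelled library and at or above −1.90 in every WT-labelled one, and the other ratios overlap.

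Of 10 genes for the proteasome activator and for proteasome assembly, 2 were called higher, 1 lower and 7 did not pass (7 higher and 2 lower in replicates 2 and 3 alone). Over all tested genes 27.3% were called, so that 3 of 10 is near the background. In replicates 2 and 3 alone 25.8% of all tested genes were higher and 27.1% lower. There 7 of 10 higher lay above that share, and 2 of 10 lower did not. Psme1, a subunit gene of the PA28 activator that is induced by interferon-γ, fell from 172 ± 5.14 to 110 ± 10.55 CPM (log2 fold change −0.65, SE 0.12, adjusted p = 0.0080 by edgeR). Its partner subunit gene Psme2, named after its value was seen, had 165, 122 and 122 CPM against 155, 112 and 109 CPM and was not called. Pomp, the chaperone that assembles new proteasomes, rose from 132 ± 1.51 to 187 ± 10.7 CPM (0.50, SE 0.11, adjusted p = 0.015). Psme4, which encodes the activator PA200, rose from 101 ± 0.46 to 127 ± 3.00 CPM (0.34, SE 0.10, adjusted p = 0.047). The Psme1 and Pomp calls were lost without KO-labelled replicate 2 or 3 (adjusted p 0.055 to 0.090), and the Psme4 call without any library except WT-labelled replicate 1 (up to 0.17).

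Among 20 chaperones, peptidases and other partners of peptide loading, 1 was called lower, 0 higher and 19 did not pass, with a median log2 fold change of −0.09. At an unadjusted p under 0.05 edgeR gave 1 higher and 4 lower, and DESeq2 called 1 and 2 and limma-voom 0 and 1. Replicates 2 and 3 alone gave 2 and 4. The edgeR share of all tested genes called was 27.3%, and 52.9% in replicates 2 and 3 alone. This list lay below that share in both settings. The gene called lower was Tapbpl, which encodes the tapasin relative TAPBPR, a peptide editor. It had 40.8, 49.0 and 45.4 CPM under the WT label and 30.96, 31.1 and 32.3 CPM under the KO label, a fall of 0.52 (SE 0.12, adjusted p = 0.019 by edgeR). Its call too was kept only without WT-labelled replicate 1 among the 6 omissions (otherwise 0.053 to 0.099).

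Among the other class I and class I-like heavy chain genes calls were made in both directions. Of 33 listed genes 32 were in the table, 14 of them with 0 reads in every library, and 9 had enough reads to be tested. Of these 9, 3 were called higher, 2 lower and 4 did not pass (5 higher and 3 lower in replicates 2 and 3 alone). Both counts lay above the share of all tested genes called, 27.3% over 6 libraries and 52.9% in replicates 2 and 3 alone. Passing the filter depends on the level in the higher group, so these counts describe only the genes that passed. They also leave out H2-K2, which was not listed, was counted among the chromosome 17 neighbours below and is named with its value known. H2-K2 rose from 5.21 ± 3.45 to 15.2 ± 1.08 CPM (1.55, SE 0.46, adjusted p = 0.045 by edgeR). H2-T23, whose product Qa-1 presents leader peptides of other class I chains to the NK receptor CD94/NKG2A, had 94.3, 134 and 107 CPM under the WT label and 46.7, 28.1 and 27.9 CPM under the KO label. It fell by 1.71 on the log2 scale (SE 0.25, adjusted p = 0.0030 by edgeR), without overlap. H2-M3, which presents formylated bacterial peptides, had 22.2, 34.4 and 41.1 CPM against 15.9, 14.5 and 13.2 CPM (−1.16, SE 0.24, adjusted p = 0.012). H2-Q4 rose from 20.7, 31.7 and 25.9 CPM to 62.8, 55.2 and 54.4 CPM (1.14, SE 0.18, adjusted p = 0.0041). Cd1d1, which presents lipids to NKT cells, rose from 25.9, 42.0 and 35.8 CPM to 86.1, 71.9 and 69.9 CPM (1.14, SE 0.20, adjusted p = 0.0061).

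The calls of H2-T23, H2-Q4 and Cd1d1 held without any 1 of the 6 libraries and with replicates 2 and 3 summed, whereas that of H2-M3 ended when KO-labelled replicate 3 was left out (adjusted p = 0.054). H2-T10, the fifth called gene, rose from 7.35 ± 3.62 to 19.7 ± 1.57 CPM (adjusted p = 0.036 by edgeR) and was chosen for mention with its value known. Its call was kept only without WT-labelled replicate 1 among the 6 omissions (otherwise 0.063 to 0.11). Copies limit these values: 24.5% of the 31-base stretches of H2-T23, 38.4% of those of H2-Q4, 50.7% of those of H2-T10 and 24.8% of those of Cd1d1 occurred in same-strand transcripts of other genes, against 4.6% for H2-M3. H2-Q6 and H2-Q7, with 50.3% and 39.1%, were listed at 0 reads in all 6 libraries, where a count of 0 allows up to 0.12 to 0.19 CPM by counting error alone.

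**Figure D4:**
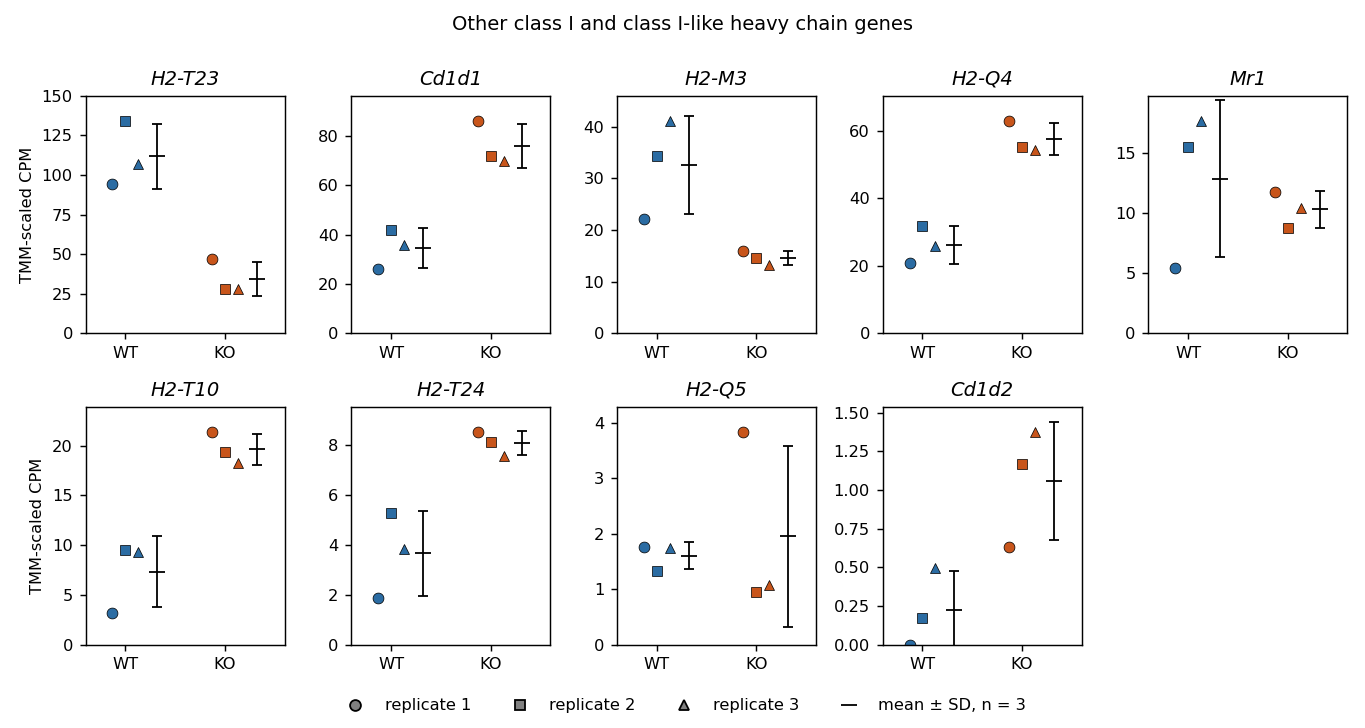
TMM-scaled CPM (vertical axes, linear, from 0) of the 9 other listed class I and class I-like heavy chain genes that were tested, in the WT-labelled (blue) and KO-labelled (orange) libraries. Symbols mark the replicate number and bars the mean ± SD; H2-T23 and H2-M3 are lower in every KO-labelled library, and H2-Q4, Cd1d1, H2-T10, H2-T24 and Cd1d2 higher in every KO-labelled library.

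The next list held factors that act on class I promoters and the interferon receptors and kinases upstream of them. Of 24 tested genes of 25 listed, 3 were higher, 3 lower and 18 did not pass (3 higher and 10 lower in replicates 2 and 3 alone), with a median of 0.05. The counts over all 6 libraries are near the share of all tested genes called, 13.7% in each direction. In replicates 2 and 3 alone 25.8% of all tested genes were higher and 27.1% lower. There 10 of 24 lower lay above that share and 3 of 24 higher below it. Rfx5, a subunit gene of the RFX complex that recruits NLRC5, rose from 45.0 ± 6.24 to 68.5 ± 3.33 CPM (0.61, SE 0.14, adjusted p = 0.017 by edgeR). Nfya, a subunit gene of the CCAAT-binding factor NF-Y, fell from 117 ± 4.98 to 82.8 ± 1.22 CPM (−0.50, SE 0.10, adjusted p = 0.013). Irf2, an interferon-regulatory factor of class I pathway genes, fell from 66.2 ± 8.67 to 43.5 ± 4.64 CPM (−0.61, SE 0.15, adjusted p = 0.022). Ifngr1, a chain of the interferon-γ receptor, rose from 175 ± 16.8 to 279 ± 13.8 CPM (0.67, SE 0.13, adjusted p = 0.0085), the only one of these 4 calls that held without any 1 library. The Rfx5 call ended without WT-labelled replicate 2 (adjusted p = 0.063) or KO-labelled replicate 2 (0.078) or 3 (0.069). The Nfya call was lost without KO-labelled replicate 2 or 3 (0.077 each), and the Irf2 call when replicate 2 or 3 of either label was omitted (0.071 and 0.069 for WT, 0.099 and 0.101 for KO). Ciita, the class II counterpart of Nlrc5, was the gene left out by the filter and was named for that reason, with at most 4 reads in any library.

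Of the 10 genes, 7 lie within 1.35 Mb of the MHC on chromosome 17, between Tapbp and H2-D1, which made their neighbours a comparison by position. Of 96 other genes of the table in that interval 68 were tested, and 14 were called higher and 5 lower, 27.9% in all against 27.3% over all tested genes. Replicates 2 and 3 alone had 20 of 68 tested neighbours higher and 20 lower (58.8%, against 52.9% over all tested genes), so the excess of higher calls was not seen there. The median log2 fold change over all 6 libraries was −0.01. Tnf, the inflammatory cytokine gene, rose from 7.47 ± 1.15 to 85.2 ± 4.47 CPM (3.51, SE 0.16, adjusted p = 3.0e-05 by edgeR). Cfb, a complement factor gene, rose from 0.74 ± 0.61 to 28.9 ± 3.03 CPM, and H2-DMb1, which helps load class II molecules, rose from 7.27 ± 2.29 to 47.3 ± 10.8 CPM. Slc44a4, a choline transporter family gene, rose from 0.019 ± 0.033 to 3.63 ± 0.54 CPM. The edgeR adjusted p was 0.0022 for Cfb, 9.2e-04 for H2-DMb1 and 6.5e-04 for Slc44a4. The changes of Tap1 and Psmb9 were smaller than each of these.

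**Figure D5:**
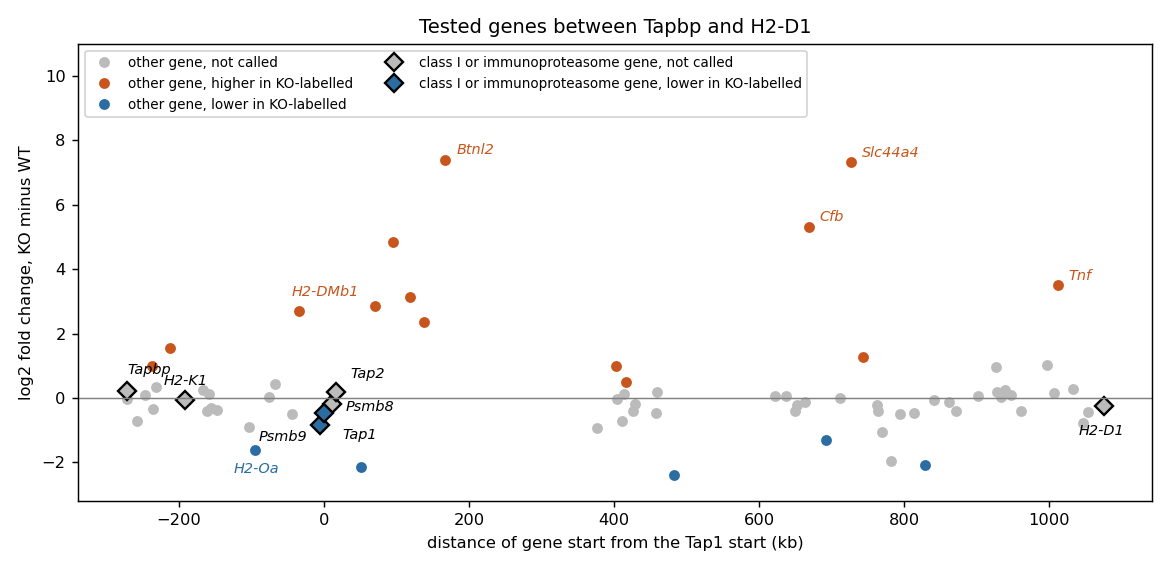
Log2 fold change, KO-labelled minus WT-labelled (vertical axis), of the tested genes between Tapbp and H2-D1 against the distance of each gene's lowest coordinate from that of Tap1 in kb (horizontal axis). Diamonds are the 7 class I and immunoproteasome genes, circles the 68 other genes, and colours the edgeR call. Tap1 and Psmb9 are the called genes among the diamonds. Genes called higher span most of the interval, and genes called lower lie in its middle part.

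Class I genes are active in most nucleated cells, so markers of other cell types were measured in the same libraries. The genes named from these lists were chosen with their values known. Among 11 genes of T and NK cells Cd3e, Cd8a, Cd8b1, Ncr1 and Gzma had 0 reads in every library, and the sum was 7.69 to 13.6 CPM under the WT label and 5.13 to 8.38 CPM under the KO label. Of the 2 tested, Cd4, which myeloid cells can also express, rose from 0.038 ± 0.066 to 1.98 ± 2.30 CPM and Lck fell from 9.13 ± 3.37 to 3.91 ± 0.64 CPM. Among 7 genes of B cells Ms4a1 and Pax5 had 0 reads, and the sum was 2.13 to 4.27 against 2.16 to 9.01 CPM. Cd79b, a chain of the B cell receptor, fell from 2.01 ± 0.15 to 0.35 ± 0.21 CPM.

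Among 9 dendritic cell genes Siglech and Cd209a had 0 reads, and the sum, 22.6 to 45.1 against 3.70 to 7.71 CPM, was made up mainly of Flt3 and Itgax. Flt3, a growth factor receptor of progenitors and dendritic cells, fell from 21.2 ± 1.91 to 0.84 ± 0.12 CPM. Itgax, the other gene of this list tested over 6 libraries, was not called (adjusted p = 0.11 by edgeR). In replicates 2 and 3 alone Flt3 and Itgax were called lower and Batf3 higher. Of 6 tested monocyte and macrophage markers 2 were called higher (Csf1r and Cd14) and 4 lower. All 9 were tested in replicates 2 and 3 alone, with 7 called lower and 2 higher. The share of all tested genes called was 27.3%, and 52.9% in replicates 2 and 3 alone. Mrc1, the macrophage mannose receptor, fell from 16.1 ± 12.9 to 0.24 ± 0.19 CPM. The stromal and endothelial list summed to 261 to 332 against 64.8 to 111 CPM, nearly all of it Pecam1, which myeloid cells also express and which fell from 294 ± 35.5 to 74.5 ± 25.6 CPM. The 8 erythroid genes summed to at most 1.89 CPM in any library.

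Of 12 genes of hematopoietic and myeloid identity 1 was called higher and 3 lower, and 2 and 6 in replicates 2 and 3 alone. The share called over 6 libraries was near the 27.3% of all tested genes. In replicates 2 and 3 alone 25.8% of all tested genes were higher and 27.1% lower, and 6 of 12 lower lay above that share. Ptprc, the common leukocyte antigen, and Spi1, a myeloid transcription factor, were at 360 ± 126 and 180 ± 25.9 CPM under the WT label and at 541 ± 49.4 and 228 ± 32.3 CPM under the KO label, and were not called. Mpo, the myeloperoxidase of granulocyte precursors, fell from 200 ± 86.2 to 0.43 ± 0.21 CPM (−8.87, SE 0.51, adjusted p = 7.8e-05 by edgeR). Kit, the receptor for SCF, fell from 353 ± 48.0 to 102 ± 1.36 CPM, and Cebpe, a granulocyte transcription factor, from 11.001 ± 0.33 to 6.07 ± 1.20 CPM. Fcgr3, an antibody receptor, rose from 81.8 ± 48.5 to 487 ± 83.3 CPM. Mpo, Kit, Cebpe, Fcgr3 and Flt3 thus differed between the groups along with Nlrc5, Psmb9 and Tap1. Monocyte and macrophage markers differed in both directions. The part of all these markers in the levels of Nlrc5, Psmb9 and Tap1 was not tested.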

How the data were processed

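Sequencing covered 6 RNA libraries, 3 with the A20 WT label and 3 with the A20 KO label. The deposited values are raw read counts for each gene in each library, not normalized, per the file headers. Per the submitters' processing notes, FastQC 0.11.7, HISAT2 2.0.5, featureCounts 1.5.2 and the build mm10 were used; the annotation, the strand setting and the treatment of reads that match several genes were not given in the sources used here. Per the labels, the library kit was stranded and selected mRNA.

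Counts were scaled by TMM and tested in R 4.3.3 with edgeR 4.0.16 (default low-count filter, robust quasi-likelihood test, Benjamini-Hochberg adjustment over all tested genes at 0.05); DESeq2 1.42.0 and limma-voom (limma 3.58.1) were alternatives. The scripts were tested on simulated data with known changes. Ratios and sums were compared by exact two-sided permutation over libraries. Intervals are 95%, and counting limits use a floor of 3 reads and cover counting error only. Positions and transcript lengths came from GENCODE vM21 (mm10), shared 31-base stretches from its transcripts, and upstream sequences from RefSeq (GRCm38.p6), in Python 3.11.15 with Biopython 1.88. The motifs were chosen with the printed sequences in view.

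The 10 genes and the gene lists were chosen with earlier results of these data known. The rule for names took the 10 genes, of every list outside the cell type markers the called genes with the smallest p, at most 4 (or the 2 of highest level if none was called), the constitutive counterparts, the check genes and up to 4 called genes of the chromosome 17 interval. Genes named after their values were seen are marked in the text; Btnl2 and H2-Oa (in a plot) and the cell type markers are also such. Alternatives changed the scaling, tool, filter, dispersion, block and libraries; summing only KO-labelled replicates 2 and 3, and a term for replicate 1, were added after the data were seen.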

Additional observations from a re-analysis of the deposited data

How the results depend on the processing

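Under other scalings (RLE, upper quartile, library totals), DESeq2, limma-voom, other filters, non-robust dispersion, removal of Rn45s and the check genes, and a term for replicate 1, the counts of the 10 genes stayed at 0 higher and 3 lower. Replicates 2 and 3 alone gave 3149 genes higher and 3309 lower, with 1 and 6 of the 10. Summing replicates 2 and 3 in each group gave 543 and 518, with 0 of the 10 lower, and summing them in the KO-labelled group alone 982 and 945, with 0 of the 10 lower. Leaving out 1 library gave 939 to 2712 genes higher and 916 to 2568 lower, with 0 to 1 of the 10 higher and 0 to 3 lower. Those sums and omissions leave fewer samples; for other changes the cause was not tested. H2-K1 ranged from −0.25 to 0.11 with 1 library left out and was 0.11 with replicates 2 and 3 summed. Tapbp was −0.011 and the ratio of Psmb10 to Psmb7 differed by −0.025 in replicates 2 and 3 alone, and the class I heavy chain sum differed by −275 to 69.2 CPM with 1 library left out. With KO-labelled replicate 1 left out only Psmb9 of the 10 was called. The lowest count among the 10 genes was 270 reads (Nlrc5).

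Same-numbered libraries did not deviate together (correlations of −0.05, −0.11 and 0.04 across genes for replicates 1, 2 and 3). With 3 libraries per group this cannot exclude that same-numbered libraries belong together, and the labels do not say so either way. With a replicate block edgeR called 989 genes higher and 1034 lower, with 0 and 2 of the 10; Tap1 did not pass (adjusted p = 0.067).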
